A study of Mus musculus with 21 samples.

Results

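Nucleoporins and nuclear transport receptors were analyzed in the neocortex of rNLS8 mice, a mouse model of amyotrophic lateral sclerosis. Members were all rows of the deposited count table with a symbol of the form Nup, Kpna, Kpnb, Ipo, Xpo or Tnpo followed by its number (with a further letter allowed for Nup, as in Nup210l, and with Xpot included), which gave 43 of 48474 rows, namely 20 nucleoporins and 23 transport receptors. Rows for further annotated copies of a symbol were left out. The rule used gene names only and no measured value. rNLS8 mice are bigenic (NEFH-tTA and tetO-hTDP-43ΔNLS) and express human TDP-43 with a defective nuclear localization signal once doxycycline is withdrawn, and the neurofilament heavy chain promoter restricts expression almost entirely to neurons. The 10 rNLS8 mice, labelled TG, were compared with 11 monogenic control littermates, labelled WT, whose single transgene was not specified. Every mouse of both groups had received 1 intracerebroventricular injection of a non-targeting antisense oligonucleotide (350 µg in 10 µL) at 17 to 19 weeks of age. All animals ate doxycycline chow (200 mg/kg) until 2 weeks after the injection and were sacrificed after 3 further weeks on chow without doxycycline. The mice were on a C57BL/6J background, and the sex of each mouse was not given. They came from 2 batches, labelled A (4 control and 3 rNLS8 mice) and B (7 control and 7 rNLS8 mice). The labels give neocortex and the study's methods give brain cortex as the tissue, whereas a legend of the study describes this rNLS8 cohort as hippocampus.

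Nuclear pore complexes are channels through the nuclear envelope, built from scaffold rings, a membrane anchor, a central channel lined by phenylalanine-glycine (FG) repeats, cytoplasmic filaments and a nuclear basket. Transport receptors carry cargo through this channel. Importin α adaptors bind classical nuclear localization signals, such as that of TDP-43, and hand the cargo to importin β1, whereas other importins, transportins and exportins bind their cargo directly, with the direction set by the GTPase Ran. Neurons depend on this transport throughout life, and mislocalization of the nuclear protein TDP-43 to the cytoplasm is a hallmark of amyotrophic lateral sclerosis.

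Each mouse contributed between 20700912 and 22263809 counts, of which 0.213% to 0.263% fell on the members. The Tardbp row, where reads of the mouse gene and of the human transgene could not be told apart, was higher in 9 of 10 rNLS8 mice than in any control mouse. The exception was rNLS8 mouse T61340 of batch A, with 2363 normalized counts against 2253 to 2827 in control mice. The log2 fold change of Tardbp was 0.79 in batch B (adjusted p = 1.42e-10) and 0.26 in batch A, where it did not pass the test (adjusted p = 0.191, edgeR). For the difference between the batches the adjusted p-value was 0.133 in edgeR and 3.38e-04 in DESeq2. rNLS8 mouse T61340 was also the lowest rNLS8 mouse for 19 of the 42 members that were tested, and rNLS8 mouse T61342 was the highest for 12. All 19 calls described next held without mouse T61340, whereas Nup188 and Xpo4 did not pass without mouse T61342. Among markers of the labelled tissue, none of 8 neuronal genes rose and 5 fell (Snap25, Syt1, Gad1, Gad2 and Map2), with a median log2 fold change of −0.38 for the list. The other neuronal markers, Rbfox3 (−0.10, adjusted p = 0.189, edgeR), Slc17a7 (0.06, adjusted p = 0.561) and Tubb3, did not pass. The summed level of the neuronal markers was 138325 to 169656 normalized counts in control mice and 105930 to 132246 in rNLS8 mice, without overlap. Abundant genes weigh most in this sum, such as Snap25 with means of 47235 in control and 28150 in rNLS8 mice. The astrocyte marker Gfap rose by 1.03 on the log2 scale while 5 of the other 6 astrocyte markers fell, and 4 of 7 microglial markers rose (C1qa, Aif1, Tmem119 and Csf1r) while P2ry12 fell. None of the 6 oligodendrocyte and 4 precursor markers passed the test, and 1 of 4 endothelial markers, Flt1, fell. The proliferation genes Mki67 and Top2a rose, out of 3 tested. Markers of choroid plexus and striatum ranged in sum from 1993 to 47368 normalized counts in control mice and from 1027 to 26054 in rNLS8 mice, and Drd1 fell by 0.66. No marker was at 0 counts. In bulk tissue, fewer cells of a type and less RNA per cell cannot be told apart, and the part of these marker differences in the results for the members was not tested.

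The main comparison addressed which pore and transport genes differ between rNLS8 and control mice. Receptors moved in both directions, led by lower Ipo13, Kpna1 and Xpot and higher Kpna4, Ipo4 and Xpo4. Among nucleoporins the largest change was that of Nup214, which was higher. In all, 19 of 42 tested members had an adjusted p-value below 0.05 in edgeR's quasi-likelihood test with batch in the model, 11 of them higher and 8 lower in rNLS8 mice. Of all 18248 genes tested, 44.7% passed the same threshold, 23% higher and 21.7% lower, so the share among the members was close to that of all genes. The remaining member, Kpna7, had 1 count in all 21 mice together and was not tested. Log2 fold changes of the members ran from −0.40 for Ipo13 to 0.44 for Nup214, with a median of 0.04 and 25 above 0, beside a median of −0.00067 over all genes tested. Among nucleoporins 6 rose, 1 fell and 13 did not pass, with a median log2 fold change of 0.08, and whether they differ from the receptors was not tested. Among the 22 tested receptors 5 rose, 7 fell and 10 did not pass, with a median of −0.04. With scaling by library size alone, which moved the median of all genes to 0.08, 17 members were higher and 6 lower, and the higher share of all called genes went from 51.4% to 67.9%.

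**Figure D1:**
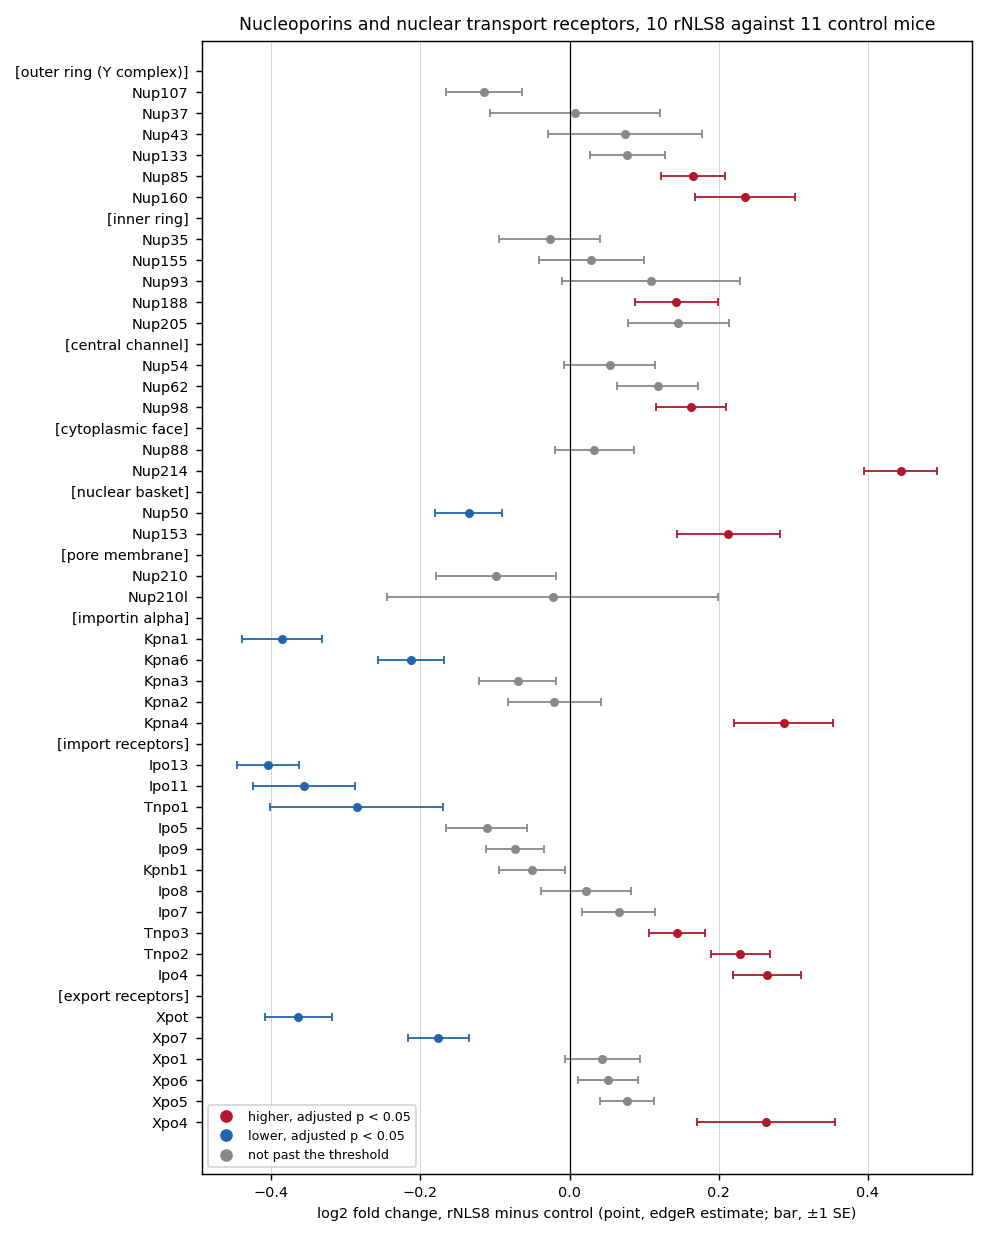
Log2 fold change (x axis, rNLS8 minus control) of the 42 tested members, grouped by place in the pore or by receptor family (y axis), where points are edgeR estimates, bars are ±1 SE, red marks higher and blue lower members with an adjusted p-value below 0.05, and grey marks the others. Nup214 at 0.44 and Ipo13 at −0.40 lie at the ends, and Nup50 is the only blue point among the nucleoporins.

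For 5 members, all 10 rNLS8 mice lay outside the control range. Nup214 and Tnpo2 were above it, as were 3.85% of all genes tested, and Ipo13, Kpna1 and Xpot were below it, as were 3.8% of all genes. Promoter windows are shown for 4 of these 5, since they mark the members with the clearest separation in either direction. The windows come from RefSeq for GRCm38.p6, run 5′ to 3′ on the strand of the gene from 250 bases before to 50 bases after an annotated transcript start, and carry matches to the searched motifs in capitals. Ipo13 lies on the minus strand at chr4:117914950-117915249, Xpot on the minus strand at chr10:121626283-121626582, Nup214 on the plus strand at chr2:31974200-31974499 and Tnpo2 on the plus strand at chr8:85036936-85037235. The window of Tnpo2 lies wholly and those of Ipo13 and Xpot lie mostly within the annotated span of the gene, and that of Tnpo2 is 1 of 2 windows listed for it. Kpna1 had no entry in this table.
Ipo13: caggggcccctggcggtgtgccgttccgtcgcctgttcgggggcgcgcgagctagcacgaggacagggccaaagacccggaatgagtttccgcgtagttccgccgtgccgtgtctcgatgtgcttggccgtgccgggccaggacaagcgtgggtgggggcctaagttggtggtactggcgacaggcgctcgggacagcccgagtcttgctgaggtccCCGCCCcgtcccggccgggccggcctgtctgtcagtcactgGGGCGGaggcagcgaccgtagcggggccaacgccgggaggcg
Xpot: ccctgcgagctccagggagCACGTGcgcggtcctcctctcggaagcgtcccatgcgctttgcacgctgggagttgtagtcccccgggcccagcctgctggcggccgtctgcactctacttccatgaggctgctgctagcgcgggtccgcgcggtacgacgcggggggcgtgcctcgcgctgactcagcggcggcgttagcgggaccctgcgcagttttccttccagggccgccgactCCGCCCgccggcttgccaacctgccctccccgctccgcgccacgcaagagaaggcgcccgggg
Nup214: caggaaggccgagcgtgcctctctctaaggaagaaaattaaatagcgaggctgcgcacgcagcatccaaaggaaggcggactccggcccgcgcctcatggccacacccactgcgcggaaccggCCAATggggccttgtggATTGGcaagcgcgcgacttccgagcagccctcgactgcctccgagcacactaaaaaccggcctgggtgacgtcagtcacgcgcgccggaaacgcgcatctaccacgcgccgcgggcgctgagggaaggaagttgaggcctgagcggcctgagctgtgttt
Tnpo2: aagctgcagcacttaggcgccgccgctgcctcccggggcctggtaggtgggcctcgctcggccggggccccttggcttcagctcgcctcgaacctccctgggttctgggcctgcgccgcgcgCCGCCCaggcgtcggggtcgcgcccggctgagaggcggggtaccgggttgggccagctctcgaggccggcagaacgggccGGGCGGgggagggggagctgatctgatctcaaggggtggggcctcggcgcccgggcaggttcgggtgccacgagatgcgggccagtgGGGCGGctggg

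The motifs, searched on both strands, were the GC box (GGGCGG), the CCAAT box (CCAAT), an E-box (CACGTG), an ETS motif (CCGGAAG) and the core of the NRF1 motif (GCGCATGC), and the capitals above do not overlap each other. Ipo13 held 2 GC boxes, Xpot held 1 GC box and 1 E-box, Nup214 held 2 CCAAT boxes and Tnpo2 held 3 GC boxes. Of the 41 windows found for 34 members, 63.4% held a GC box, against 35.7% of all 32851 windows in the table. A CCAAT box was present in 53.7% of member windows and 37.4% of all windows. For the E-box the shares were 17.1% and 7.15%, for the ETS motif 17.1% and 8.86%, and for the NRF1 core 9.76% and 2.71%. The lower Ipo13 and the higher Tnpo2 both carried GC boxes, so the presence of this motif did not divide the 4 genes by direction.

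Among scaffold nucleoporins, members of the outer ring and inner ring were higher or did not pass the test. The outer ring (Y complex) had 2 higher members of 6. Nup160 (chromosome 2, 90677215 to 90739327) had a lowest, median and highest normalized count of 222, 250 and 298 in control mice and of 210, 307 and 338 in rNLS8 mice. In 7 of 10 rNLS8 mice it was above every control mouse, while mouse T61340 was below all of them at 210. The mean rose from 255 ± 21.7 (SD, n = 11) to 302 ± 39.0 (SD, n = 10), a log2 fold change of 0.24 (SE 0.067, adjusted p = 0.00599, edgeR). It was 0.28 (adjusted p = 2.07e-04) without mouse T61340 and 0.20 (adjusted p = 0.0164) without mouse T61342. Nup85 had values of 353, 397 and 436 in control mice and 388, 447 and 480 in rNLS8 mice, where 7 of 10 mice exceeded the control range, and its log2 fold change was 0.17 (SE 0.043, adjusted p = 0.00284, edgeR), although it passed in neither batch alone. The other outer ring members, Nup107 (−0.11), Nup133 (0.08), Nup37 (0.01) and Nup43 (0.07), did not pass. Nup107 was the only one of the 6 with a negative estimate, with 251 ± 24.0 in control and 234 ± 27.0 in rNLS8 mice (adjusted p = 0.0714, edgeR).

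The inner ring joins the scaffold to the membrane and to the central channel, and 1 of its 5 members passed the test. Nup188 had a lowest, median and highest count of 322, 366 and 413 in control mice and 361, 405 and 475 in rNLS8 mice. The groups overlapped, with 4 of 10 rNLS8 mice above all controls, and the log2 fold change was 0.14 (SE 0.055, adjusted p = 0.0384, edgeR). This call was lost in 10 of 21 fits that left out 1 mouse each, with adjusted p-values up to 0.101, and 12.4% of the exon length of Nup188 overlaps other genes. Its paralog Nup205 had nearly the same estimate, 0.15, and did not pass (adjusted p = 0.0864, edgeR). Without rNLS8 mouse T61340, which had 347 counts where the other rNLS8 mice had 456 to 571, Nup205 reached 0.20 (adjusted p = 0.00269, edgeR), but it was 0.13 (adjusted p = 0.157) without mouse T61342 and 0.12 (adjusted p = 0.174) without mouse T60303. Nup93, Nup155 and Nup35 had log2 fold changes of 0.11, 0.03 and −0.03. Nup93 was the most variable scaffold member, with a coefficient of variation of 23.9% in control mice and counts from 290 to 779.

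The central channel nucleoporins carry the FG repeats that transport receptors bind, and all 3 members had positive estimates. Nupl1, a channel gene outside the naming rule that is described below, fell by 0.26 (adjusted p = 9.85e-04, edgeR). Nup98, which also contributes to RNA export, had a lowest, median and highest count of 561, 673 and 769 in control mice and 575, 762 and 855 in rNLS8 mice. The groups overlapped widely, with 4 of 10 rNLS8 mice above every control. The mean rose from 659 ± 70.1 to 747 ± 85.5 (log2 fold change 0.16, SE 0.047, adjusted p = 0.00652, edgeR). Nup62 (0.12, adjusted p = 0.0792, edgeR) and Nup54 (0.05, adjusted p = 0.503) did not pass. At the cytoplasmic face, 1 of 2 members passed the test. Nup214, a docking site for exportin 1 and for the mRNA export helicase, is located on chromosome 2 from 31974408 to 32053975. Its lowest, median and highest counts were 682, 813 and 909 in control mice and 1015, 1097 and 1311 in rNLS8 mice. Every rNLS8 mouse was thus above every control mouse. The mean rose from 814 ± 60.2 to 1108 ± 84.9 (log2 fold change 0.44, SE 0.049, adjusted p = 8.24e-08, edgeR), by 0.61 in batch A and 0.37 in batch B. Without mouse T61342, which had the highest value, the log2 fold change of Nup214 was 0.41 (adjusted p = 5.76e-08, edgeR). Nup88, which binds Nup214, had 703 ± 72.5 in control and 723 ± 52.0 in rNLS8 mice (0.03, adjusted p = 0.642, edgeR).

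The nuclear basket contained members moving in opposite directions. Nup153, which anchors the basket and binds importins, is located on chromosome 13 from 46679902 to 46727849. Its lowest, median and highest counts were 790, 890 and 956 in control mice and 651, 1059 and 1174 in rNLS8 mice. In 9 of 10 rNLS8 mice it was above all controls, and the other one, mouse T61340, was below all controls. The log2 fold change was 0.21 (SE 0.069, adjusted p = 0.0147, edgeR) and ranged from 0.17 (adjusted p = 0.0428) without mouse T61342 to 0.28 (SE 0.044, adjusted p = 1.51e-05) without mouse T61340. Nup50, a mobile basket protein that promotes release of cargo from importin α, fell from 879 ± 59.8 to 799 ± 50.5 (log2 fold change −0.14, SE 0.045, adjusted p = 0.0161, edgeR), with 2 of 10 rNLS8 mice below all controls. It did not pass with scaling by library size alone or with no filter on low counts. In the pore membrane, the glycoprotein gene Nup210 had a lowest, median and highest count of 420, 526 and 565 in control mice and 353, 463 and 623 in rNLS8 mice. Its groups overlapped, and the log2 fold change was −0.10 (SE 0.081, adjusted p = 0.342, edgeR). Its paralog Nup210l had 3 to 15 raw counts per mouse and a log2 fold change of −0.02 (SE 0.22), so no difference was detectable at this depth.

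Of the 5 tested importin α adaptors, 2 fell, 1 rose and 2 did not pass. Kpna1 (chromosome 16, 35983288 to 36037136) had a lowest, median and highest count of 3020, 3209 and 3486 in control mice and 1881, 2481 and 2859 in rNLS8 mice. All rNLS8 mice were below all controls. The mean fell from 3194 ± 136 to 2454 ± 285 (log2 fold change −0.39, SE 0.054, adjusted p = 2.50e-06, edgeR). On the linear scale Kpna1 fell by 23.5%. Its lowest value was that of mouse T61340, without which the log2 fold change was −0.35 (adjusted p = 1.03e-06, edgeR). Kpna6, of the same importin α subfamily as Kpna1, fell from 2130 ± 106 to 1838 ± 143 (log2 fold change −0.21, SE 0.044, adjusted p = 3.71e-04, edgeR), with 9 of 10 rNLS8 mice below all controls. Kpna4, which shares another subfamily with Kpna3, moved the other way. Its lowest, median and highest counts were 1399, 1765 and 1944 in control mice and 1693, 2078 and 2509 in rNLS8 mice. The groups overlapped, with 7 of 10 rNLS8 mice above every control. The mean rose from 1706 ± 179 to 2086 ± 242 (log2 fold change 0.29, SE 0.066, adjusted p = 0.00104, edgeR). Kpna3 (−0.07, adjusted p = 0.289, edgeR) and Kpna2 (−0.02, adjusted p = 0.821) did not pass. Kpna7 had 0 counts in every rNLS8 mouse, where a count of 0 allows up to 3 counts, or 0.135 to 0.144 CPM.

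**Figure D2:**
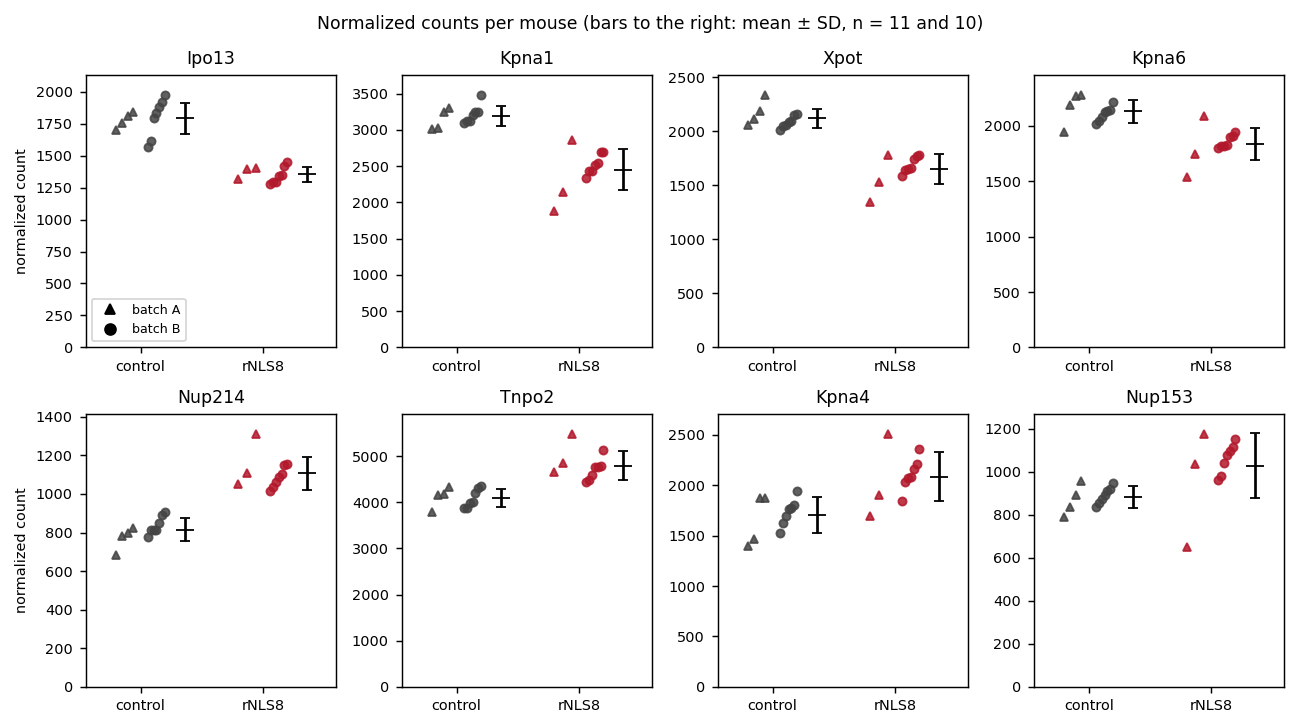
Normalized counts (y axis, starting at 0) of 8 members in each control mouse (black) and rNLS8 mouse (red), with triangles for batch A, circles for batch B, and mean ± SD drawn to the right of each group. Ipo13, Kpna1 and Xpot of all rNLS8 mice lie below the controls, Nup214 and Tnpo2 lie above, and the low red triangle for Nup153 at 651 is mouse T61340.

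Import receptors of the importin β family comprised 11 members, of which 3 fell, 3 rose and 5 did not pass. Ipo13, a receptor that carries cargo in both directions, is located on chromosome 4 from 117893268 to 117915222. Its lowest, median and highest counts were 1567, 1811 and 1975 in control mice and 1276, 1343 and 1447 in rNLS8 mice. All rNLS8 mice were below all controls, and the rNLS8 values were close together, with a coefficient of variation of 4.41%. The mean fell from 1790 ± 125 to 1352 ± 59.6 (log2 fold change −0.40, SE 0.042, adjusted p = 2.55e-08, edgeR). On the linear scale Ipo13 fell by 24.5%. Ipo11 had a lowest, median and highest count of 433, 600 and 656 in control mice and 324, 475 and 523 in rNLS8 mice. Although only 3 of 10 rNLS8 mice were below every control, the log2 fold change was −0.36 (SE 0.069, adjusted p = 1.67e-04, edgeR). A further row for a copy of Ipo11 in the table had a log2 fold change of −0.42 (adjusted p = 0.00546, edgeR).

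Transportins bind proline-tyrosine type signals, as in several RNA-binding proteins, or serine-arginine rich splicing factors in the case of Tnpo3. The closely related Tnpo1 and Tnpo2 differed in sign. Tnpo2 (chromosome 8, 85036873 to 85057585) had a lowest, median and highest count of 3791, 4155 and 4351 in control mice and 4437, 4763 and 5478 in rNLS8 mice. All rNLS8 mice were above all controls, with means of 4095 ± 196 and 4791 ± 312 (log2 fold change 0.23, SE 0.040, adjusted p = 4.69e-05, edgeR), and 11.7% of its exon length overlaps other genes, 1 on the opposite and 1 on the same strand. Tnpo1 (chromosome 13, 98839019 to 98926384) had values of 1092, 1282 and 1391 in control mice and 455, 1080 and 1335 in rNLS8 mice. The lowest value belonged to mouse T61340, and 5 of 10 rNLS8 mice were below all controls. The log2 fold change of Tnpo1 was −0.29 (SE 0.116, adjusted p = 0.0489, edgeR), became −0.18 (SE 0.067, adjusted p = 0.0298) without mouse T61340, and lost its call in 13 of 21 fits that left out 1 mouse. It did not pass with scaling by library size alone, without the batch term or with no filter on low counts either. Tnpo3 rose from 1509 ± 89.5 to 1675 ± 97.8 (log2 fold change 0.14, SE 0.037, adjusted p = 0.00269, edgeR), and 9 of 10 rNLS8 mice were above all controls.

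Ipo4, which imports histones, is located on chromosome 14 from 55625400 to 55635868. It had a lowest, median and highest count of 1185, 1351 and 1434 in control mice and 1358, 1568 and 1749 in rNLS8 mice. In 9 of 10 rNLS8 mice it was above every control (log2 fold change 0.26, SE 0.046, adjusted p = 4.90e-05, edgeR). However, 55.3% of its exon length is shared with an overlapping gene on the same strand, so reads of these genes may not have been told apart. Importin β1 itself, Kpnb1, had 4184 ± 234 in control and 4066 ± 362 in rNLS8 mice (−0.05, SE 0.044, adjusted p = 0.372, edgeR). The remaining importins Ipo5 (−0.11), Ipo9 (−0.07) and Ipo7 (0.07), which import ribosomal proteins, histones and other basic cargo, and Ipo8 (0.02) did not pass, with adjusted p-values from 0.103 to 0.804 (edgeR). Ipo5 passed in 2 of 21 fits that left out 1 mouse. Ipo8 was at 0.08 (adjusted p = 0.0916, edgeR) without mouse T61340 and at 3.9e-04 (adjusted p = 0.996, edgeR) without mouse T61342.

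Export receptors comprised 6 members, of which 2 fell, 1 rose and 3 did not pass. Xpot, the exportin for tRNA, is located on chromosome 10 from 121587380 to 121626506. Its lowest, median and highest counts were 2014, 2095 and 2339 in control mice and 1351, 1657 and 1783 in rNLS8 mice. All rNLS8 mice were below all controls, and the mean fell from 2120 ± 90.1 to 1650 ± 136 (log2 fold change −0.36, SE 0.045, adjusted p = 3.89e-07, edgeR). Xpo7, an exportin with broad cargo, fell from 1757 ± 76.3 to 1555 ± 109 (log2 fold change −0.18, SE 0.040, adjusted p = 9.88e-04, edgeR), with 9 of 10 rNLS8 mice below the control range. Xpo4, which exports the translation factor eIF5A, is located on chromosome 14 from 57577521 to 57668232. It had a lowest, median and highest count of 317, 363 and 442 in control mice and 243, 454 and 556 in rNLS8 mice. In 6 of 10 rNLS8 mice it was above all controls, while mouse T61340 was below all of them. The log2 fold change was 0.26 (SE 0.093, adjusted p = 0.0235, edgeR), against 0.34 (adjusted p = 1.67e-04) without mouse T61340 and 0.19 (adjusted p = 0.0755) without mouse T61342. Xpo1, the main exportin for leucine-rich export signals, had 1180 ± 88.9 and 1222 ± 121 (0.04, SE 0.050, adjusted p = 0.511, edgeR). Its log2 fold change was 0.08 (adjusted p = 0.135) without mouse T61340 and 0.01 (adjusted p = 0.863, edgeR) without mouse T61342, and neither fit passed. Xpo5, the exportin for microRNA precursors (0.08, adjusted p = 0.0855, edgeR), and Xpo6, the exportin for actin (0.05, adjusted p = 0.324), did not pass.

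Levels of the members relative to one another were compared as normalized counts per kilobase of exon. Exon length was the union of all annotated exons of a gene, whether or not they were expressed. Ranks on this scale therefore depend on the annotation as well as on the counts. Receptors dominated the upper end of this scale. In control mice Tnpo2 (652 ± 31.2) and Kpnb1 (635 ± 35.5) had the highest levels and did not differ beyond their spread, followed by Ipo5 (511 ± 46.1), Ipo9 (455 ± 30.0), Kpna3 (431 ± 30.6) and Ipo13 (425 ± 29.6). Each of these overlapped its neighbour in the order within their SD, except for the step from Kpnb1 to Ipo5. The highest nucleoporins were Nup50 (180 ± 12.2) and Nup62 (176 ± 13.5). At the lower end were Nup160 (29.1 ± 2.48), Nup155 (28.3 ± 2.63), Nup43 (21.5 ± 3.68), Nup37 (15.6 ± 2.81) and Nup210l (1.75 ± 0.500). In rNLS8 mice the order of the first 5 was the same, Ipo4 moved from rank 10 to rank 6, and Ipo13, Kpna1, Xpot and Kpna6 each moved down by 1 rank. Levels of Ipo11, Ipo8, Kpna6, Nup43 and Nup88 are uncertain on this scale, because the table held a second row for each of these symbols.

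**Figure D3:**
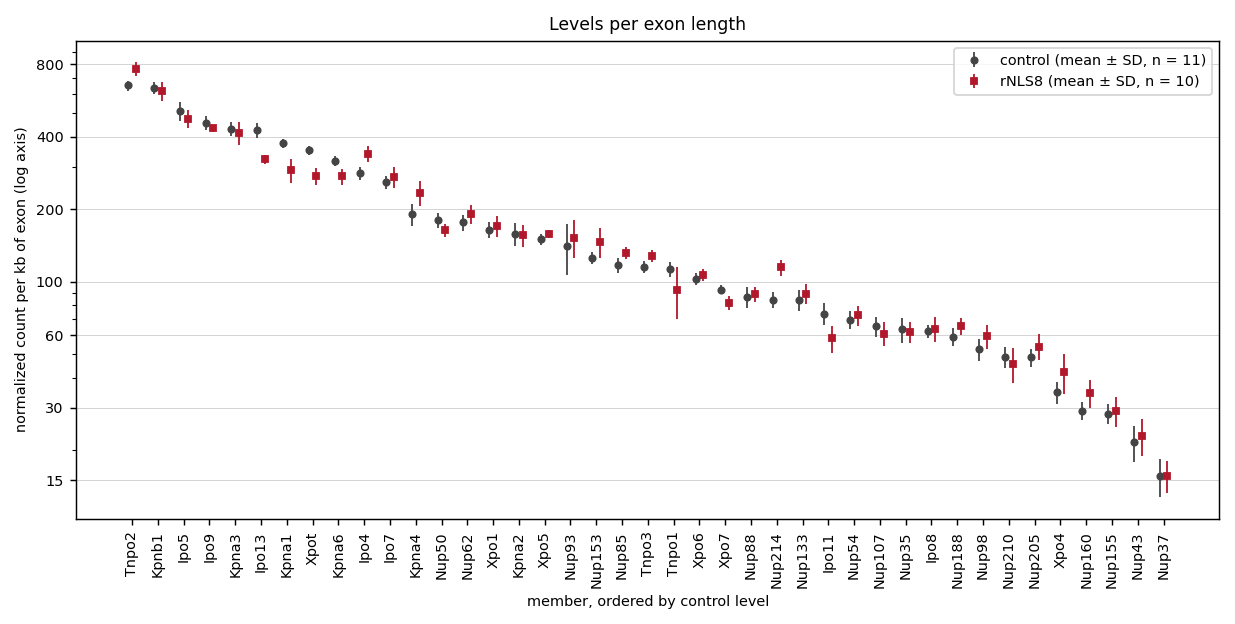
Normalized count per kilobase of exon (y axis, log scale) of 41 members, ordered by the level in control mice (x axis), as mean ± SD in control (black, n = 11) and rNLS8 mice (red, n = 10), with Nup210l at 1.75 left off the scale. Receptors fill the first 12 places, and the red points of Ipo13, Kpna1 and Xpot fall below the black ones while those of Ipo4 and Nup214 lie above.

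The comparison was repeated within each batch. In batch B, 19 members passed the test, as did 39.1% of the genes tested there, and 17 of them were among the 19 called over both batches. Nup85 (0.11, adjusted p = 0.0575) and Nup188 (0.09, adjusted p = 0.233) did not pass in batch B, while Ipo5 (−0.16, adjusted p = 0.00424) and Nup205 (0.17, adjusted p = 0.0161, edgeR) passed there and not over both batches. In batch A, with 3 rNLS8 mice, 4 members passed (Nup214 and Ipo4 higher, Ipo13 and Xpot lower), beside 11.8% of the genes tested. All 19 members called over both batches had the same sign in each batch, and 37 of the 41 members tested in both had the same sign. For the 19 this is not a replication, because they were called from these same mice. The share of all genes with the same sign in both batches was not computed. Ipo13 fell by 0.35 in batch A and by 0.43 in batch B, Kpna1 by 0.43 and 0.36, and Xpot by 0.46 and 0.31. Tnpo2 was higher by 0.30 and 0.20, and Kpna4 by 0.32 and 0.27. No member and no gene had an adjusted p-value below 0.05 for the interaction of genotype and batch in edgeR. At an unadjusted p-value below 0.05, 1 member passed (Nup214, batch B minus batch A −0.21, p = 0.0419 in edgeR's test across all genes), beside 5.64% of all genes. In DESeq2 no member passed this interaction test after adjustment and 2 did before it, and of all 35143 genes with an adjusted p-value 1 passed, namely Tardbp.

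**Figure D4:**
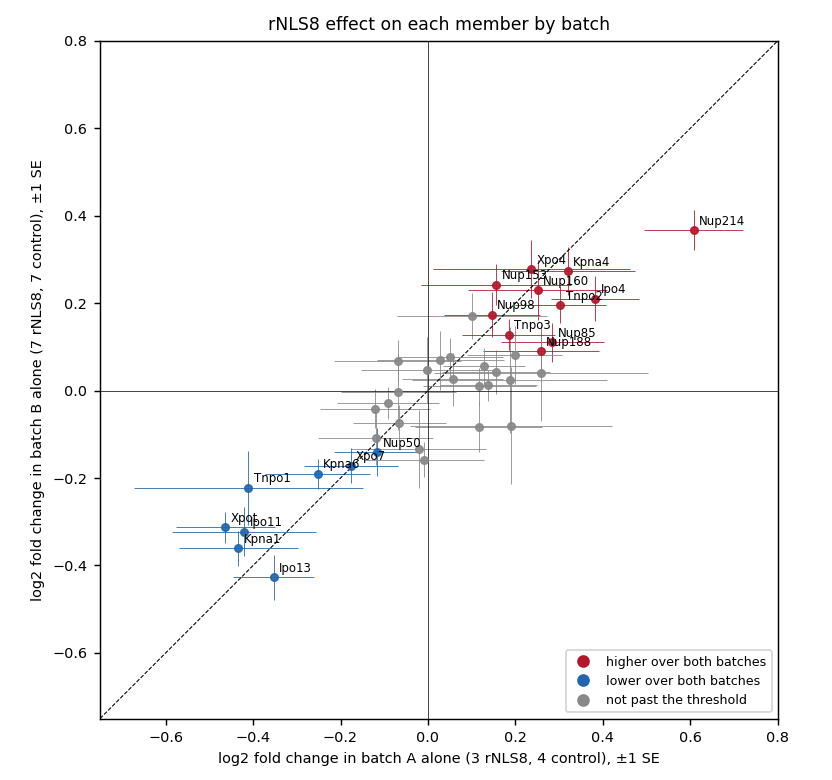
Log2 fold change of 41 members in batch A (x axis, 3 rNLS8 and 4 control mice) against batch B (y axis, 7 rNLS8 and 7 control mice), with ±1 SE bars in both directions, a dashed line of equality, and red and blue for members higher or lower over both batches. The red members lie in the upper right and the blue members in the lower left quadrant, with Nup214 at 0.61 and 0.37 and Ipo13 at −0.35 and −0.43.

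Other genes of the same pathway were taken from lists of pore proteins with other names, the Ran cycle, mRNA export and the nuclear lamina and envelope. Of 51 such genes tested, 9 rose, 11 fell and 31 did not pass, with a median log2 fold change of 0.01, beside 23% higher and 21.7% lower among all genes, so these counts did not exceed the background. With scaling by library size alone 18 were higher and 7 lower. Among 12 other pore proteins 1 rose and 3 fell. Gle1, which activates the mRNA export helicase at the cytoplasmic face, fell from 1072 ± 50.8 to 816 ± 50.4 (log2 fold change −0.40, adjusted p = 1.84e-08, edgeR), and all 10 rNLS8 mice were below all controls. The transmembrane nucleoporins moved in opposite directions, as Pom121 fell by 0.34 (adjusted p = 8.80e-05) and Ndc1 rose by 0.26 (adjusted p = 3.81e-05, edgeR), the latter with all 10 rNLS8 mice above all controls. Nupl1, which encodes the channel nucleoporin Nup58 and was named after its value was seen, fell by 0.26 (adjusted p = 9.85e-04, edgeR). The filament protein and SUMO ligase Ranbp2 had 2476 ± 160 and 2378 ± 414 (−0.07, adjusted p = 0.464, edgeR).

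Of 9 Ran cycle genes 2 rose and 4 fell. Ran had a lowest, median and highest count of 3128, 3371 and 3706 in control mice and 2502, 2693 and 2991 in rNLS8 mice. All rNLS8 mice were below all controls (log2 fold change −0.32, SE 0.035, adjusted p = 8.68e-08, edgeR). Rangap1, which triggers GTP hydrolysis on Ran in the cytoplasm, fell by 0.22 (adjusted p = 0.00365, edgeR), and Cse1l, which returns importin α to the cytoplasm, fell by 0.19 (adjusted p = 0.00494). Rcc1, the chromatin-bound exchange factor that loads Ran with GTP, rose by 0.23 (adjusted p = 0.0173, edgeR), and Ranbp1, which assists hydrolysis, rose by 0.25 (adjusted p = 2.32e-04).

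**Figure D5:**
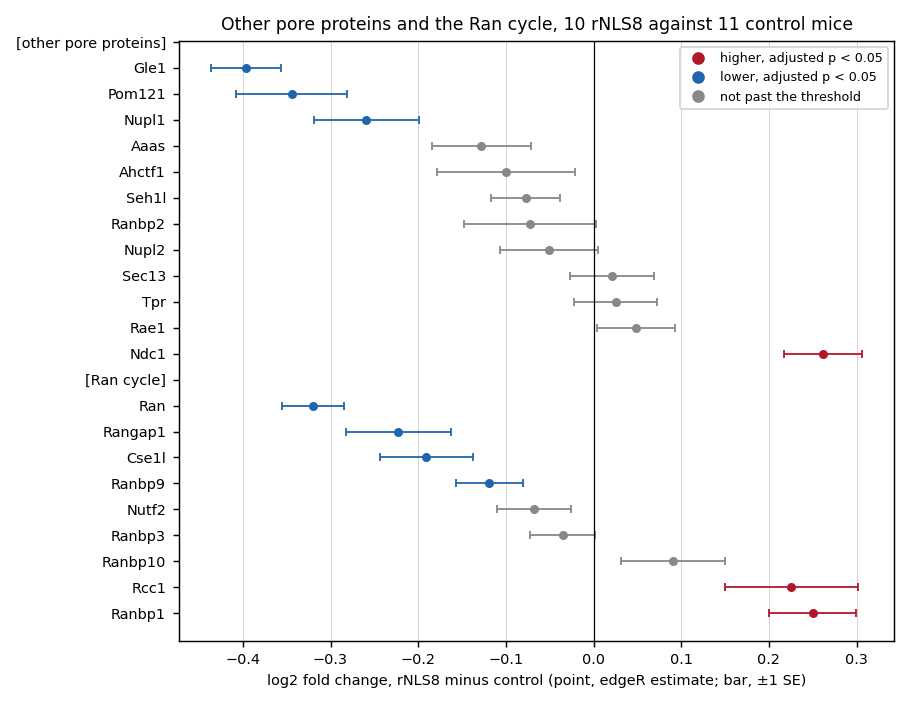
Log2 fold change (x axis, rNLS8 minus control) of 12 pore proteins outside the naming rule and 9 Ran cycle genes (y axis), with points for edgeR estimates, bars for ±1 SE, and red, blue and grey for higher, lower and not passing an adjusted p-value of 0.05. Gle1 at −0.40 and Ran at −0.32 are the lowest of their groups, and Ndc1 at 0.26 and Ranbp1 at 0.25 the highest.

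Among 16 mRNA export genes 1 rose and 2 fell. Ddx19b, a helicase that releases mRNA at the cytoplasmic filaments, fell from 686 ± 40.2 to 509 ± 43.8 (log2 fold change −0.43, SE 0.050, adjusted p = 1.74e-07, edgeR), without overlap of the groups. The related Ddx19a, named after its value was seen, had 397 ± 30.4 and 393 ± 27.5 (−0.02, adjusted p = 0.731, edgeR) and did not pass. Mcm3ap fell by 0.14 (adjusted p = 0.0208, edgeR) and Eny2 rose by 0.10 (adjusted p = 0.0340). The mRNA export receptor and adaptor genes Nxf1 (0.01) and Alyref (0.03), named after their values were seen, did not pass. Among 14 lamina and envelope genes 5 rose and 2 fell. Sun2, which spans the inner nuclear membrane and links lamina and cytoskeleton, rose from 1348 ± 165 to 2196 ± 175 (log2 fold change 0.70, SE 0.064, adjusted p = 3.72e-09, edgeR), with all 10 rNLS8 mice above all controls. Its partner on the outer membrane, Syne1, fell by 0.40 (adjusted p = 2.43e-05, edgeR), and the lamin gene Lmnb1 rose by 0.32 (adjusted p = 0.00275).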

How the data were processed

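Messenger RNA of the neocortex was sequenced as paired-end reads. The deposited table holds raw whole-number counts per gene name. The submitters' processing notes name HISAT, HISAT2, Bowtie, Bowtie2 and RSEM and the build mm10, without saying which gave the table or whether strand was used. The members and the gene lists were chosen with earlier results of these data known.

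The counts of all 21 mice entered a quasi-likelihood model (edgeR 4.0.16 under R 4.3.3) of genotype plus batch after TMM scaling. The default expression filter (minimum count 10, minimum total 15) left 18248 of 48474 rows, and p-values were adjusted over these by Benjamini-Hochberg at a threshold of 0.05. A normalized count is the count scaled to the mean effective library size, and a standard error is the log2 fold change divided by the root of F. The scripts were tested on simulated data. Alternatives were DESeq2 1.42.0, no batch term, library size scaling, other filters, each batch alone, other treatment of copy rows (summing them was added after seeing the data) and leaving out each mouse. No pair of libraries of a genotype agreed within sampling noise. Separate mice are the replicates. A floor of 3 counts is 0.135 to 0.145 CPM at these depths and covers counting error only. Full values are given for the 12 called members with the largest changes and for the member with the smallest p-value of each group.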

Additional observations from a re-analysis of the deposited data

Results flagged for a closer look

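Within the 10 rNLS8 mice, 1 mouse lay far from the other 9 for 8 of the 42 tested members, by the size of its gap divided by the range of the group. Chance alone gives such a mouse in about 1 in 20 independent groups, or 5%, but this rate does not apply here, because the members share the same mice and both batches were pooled. All 8 cases were mice of batch A, which holds 3 of the 10 rNLS8 mice. Of these 8 members, 6 concerned rNLS8 mouse T61340 of batch A, which was low each time. For Ipo8 its 682 normalized counts compared with 993 to 1085 in the other rNLS8 mice (gap of 0.772 of the range). For Nup153 it had 651 against 959 to 1174 (0.589), for Xpo4 243 against 424 to 556 (0.579), and for Xpo1 931 against 1159 to 1339 (0.558). Tnpo1 was at 455 against 883 to 1335 (0.486), and Nup205 at 347 against 456 to 571 (0.486). In rNLS8 mouse T60303, Kpna2 was low at 339 against 427 to 512 (0.509). In rNLS8 mouse T61342, Nup214 was high at 1311 against 1015 to 1153 (0.532). The cause was not tested.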

How the results depend on the processing

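All 19 called members kept their direction in every alternative that was run. DESeq2 kept 18 of the 19 calls and lost Nup188, the fit without batch kept 18 and lost Tnpo1, no filter on low counts kept 16 and lost Nup188, Nup50 and Tnpo1, and at least 10 counts in every mouse, leaving out copy rows or summing them kept all 19. With library size scaling 17 members were higher, and 18 pathway genes were higher and 7 lower. In batch A alone 4 members were called, 2 higher and 2 lower, and of the pathway genes 2 were higher and 1 lower, with 3 against 4 mice. Leaving out 1 mouse at a time gave 17 to 20 called members, 9 to 12 of them higher and 7 to 9 lower, and 8 to 10 higher and 10 to 13 lower pathway genes. Beside Tnpo1 (13 of 21 fits), Nup188 (10 of 21) and Xpo4 (without mouse T61342), no called member lost its call. Direction changed for 9 members, none of them called. With library size scaling Ipo9 was at 0.0039, Kpna3 at 0.0064, Kpnb1 at 0.026, Kpna2 at 0.055, Nup210l at 0.053 and Nup35 at 0.050. In batch A alone Ipo8 was at −0.069, Kpna2 at 0.12, Nup155 at −0.0024 and Nup210l at 0.14, and in batch B alone Nup37 was at −0.080. Leaving out 1 mouse, Kpna2 ranged from −0.066 to 0.014, Nup155 from −0.0028 to 0.080, Nup210l from −0.099 to 0.087, Nup35 from −0.056 to 0.0035 and Nup37 from −0.045 to 0.051. The cause of these changes was not tested. No paired analysis was possible because mouse numbers are not shared between the groups. Depth limits Nup210l, Nup37 and Nup43, with under 80 normalized counts in every mouse, and Kpna7.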
